A study of Mus musculus with 2 samples.

Results

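Non-cycling alveolar macrophages were compared between 1 lung library labelled GFI1 KO and 1 lung library labelled GFI1 WT, each from adult lung on the C57BL6/J background and named for 1 mouse in its label. A cell was counted as a member when it held UMIs of at least 4 of 8 alveolar macrophage genes (Chil3, Krt79, Plet1, Atp6v0d2, Lpl, Mertk, Flvcr2 and Kcnip4), UMIs of fewer than 4 of 8 proliferation genes, and no UMI of Cd3e, Cd79a or Ptprb, which mark T cells, B cells and endothelium. A UMI, or unique molecular identifier, tags 1 captured RNA molecule. The rule was met by 2472 cells under the GFI1 KO label and by 3905 cells under the WT label, together 6377 of the 29837 cells within the quality limits. The members were thus chosen by their measured UMIs of the 19 genes of the rule, so the levels of those genes are a description and not a finding.

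The KO mice lack GFI1 from the germline, in every cell, and the WT mice are their controls, with no treatment named for either. Lungs were dissociated with enzymes, and live cells were sorted with Hoechst as the stain for dead cells before droplet capture with 10x 3′ chemistry, with no gate on any macrophage marker. The libraries held 10700 and 19515 cells, with medians of 11076 and 6217 UMIs per cell over the cells within the quality limits. With 1 library per label there is no replicate, so no test was possible and no p-value is given. All intervals below are 95% intervals and cover counting error only, and cells of 1 library are not replicates.

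Alveolar macrophages live on the inner surface of the air spaces, where they take up surfactant lipid and inhaled particles. They are seeded from fetal monocytes, depend on GM-CSF and TGF-beta, and maintain themselves by local division with the transcription factor PPARγ at the centre of their programme. GFI1 is a zinc finger repressor that recruits LSD1 (Kdm1a) and CoREST to DNA, and it is best known for keeping monocyte genes silent in developing granulocytes and for its part in lymphocytes.

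The class carried the identity the label gives it on measures the rule did not use. Antibody tags in the deposited matrices gave a median of 1014 CD11c tag counts per cell under the KO label and 906 under the WT label, against 21 and 49.5 in C1q-positive interstitial macrophages. CD11b had the reverse pattern, with medians of 5 and 4 in alveolar macrophages and 621 and 339 in interstitial macrophages. The CD11c and CD11b tags therefore separated the air-space macrophages from the tissue macrophages in both libraries. Siglecf, the sialic acid receptor Siglec-F, was measured at 171 CPM under the KO label and 151 under the WT label, where CPM is the gene's UMIs over all counted UMIs of the class in that library, scaled to counts per 1e6. Pparg was measured at 550 and 525 CPM, and Marco, a scavenger receptor, at 268 and 252 CPM. C1qa, the complement subunit that marks interstitial macrophages, was found in 3 of the 2349 KO and 38 of the 3748 WT cells deep enough to be thinned to 5000 UMIs. Tag levels are not comparable without care, since the isotype control tag RTK2758 had a median of 1 under the KO label and 5 under the WT label.

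Members had similar depth under both labels. The median was 13324.5 UMIs and 3942.5 genes per cell under the KO label and 13767 UMIs and 4038 genes under the WT label. Mitochondrial reads made up 4.24% and 4.34% of their UMIs. The class held 28.9% and 34.4% of all gene UMIs of its library.

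Of the cells within the quality limits, 23.6% (22.7 to 24.4, Clopper-Pearson) were non-cycling alveolar macrophages in the KO library, against 20.2% (19.6 to 20.8) in the WT library. The difference of 3.36 percentage points (2.37 to 4.36) depends on the exclusion rule: 80 KO and 706 WT cells that met every other limit were dropped for a UMI of Cd3e, Cd79a or Ptprb. With those cells kept the shares were 24.3% and 23.8%. With every cell thinned to 5000 UMIs before the rule was applied, and shallower cells left out, they were 27.9% and 34.2%, so the direction turned. A share of a digested lung also moves with how many other cells were recovered: endothelial cells numbered 104 under the KO label and 2074 under the WT label. Cycling alveolar macrophages, which met the alveolar limit and held 4 or more proliferation genes, made up 4.30% (3.55 to 5.15) and 4.34% (3.73 to 5.01) of all alveolar macrophages, intervals that overlap almost completely.

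**Figure D1:**
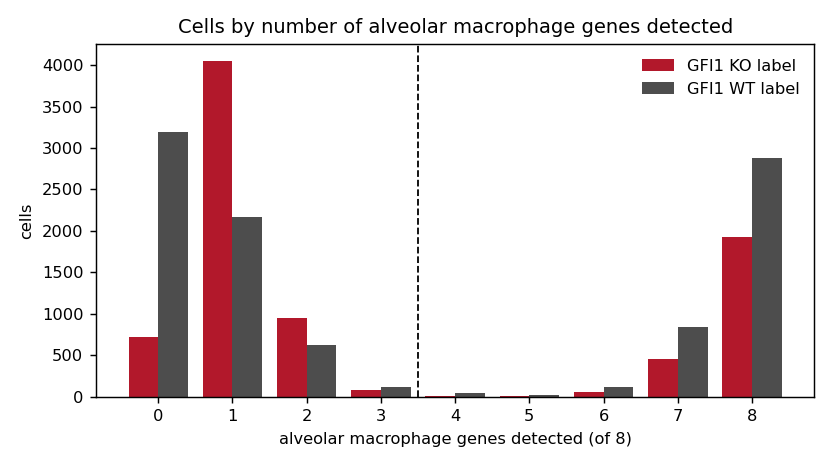
Cells that met the other limits of the rule, by how many of the 8 alveolar macrophage genes were detected, under each label, with the number of cells on the y axis. Bars at 4 and above are members, and few cells lie near the dashed line, while most members held all 8 genes (1931 KO and 2876 WT cells).

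The cut between members and non-members fell in a sparse part of the distribution. Just inside, 14 KO and 44 WT cells held exactly 4 genes, and just outside, 85 and 123 held 3. The median CD11c tag count was 34 and 233 in cells with 4 genes, 8 and 31 in cells with 3, and 1044 and 927.5 in cells with all 8. At the other limit, 20 KO and 25 WT cells with 3 proliferation genes were kept, and 12 and 23 cells with 4 were counted as cycling.

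The membership genes are given as a description. Chil3, a chitinase-like secreted protein with a near-identical copy that could share reads, was at 10473 CPM under the KO label and 13831 under the WT label. Kcnip4, which encodes a partner of potassium channels, was at 5074 and 5667 CPM, the lipoprotein lipase Lpl at 1968 and 2020, and Plet1 at 1663 and 1759. Atp6v0d2, a subunit of the proton pump, was at 1159 and 1186 CPM, and the efferocytosis receptor Mertk at 1122 and 1219. The keratin Krt79 was at 659 and 561 CPM, and the transporter Flvcr2 at 359 and 353. Gfi1 RNA could not check the label, since 3′ reads can come from outside the deleted part. It was scarce in the class: 46 UMIs were counted in KO members (1.60 CPM, 1.17 to 2.14), against 11 in WT members (0.229 CPM, 0.114 to 0.410). T cells of the same libraries held 21.3 and 10.2 CPM of Gfi1, and B cells 14.4 and 6.29. Gfi1 was thus higher, by a log2 ratio of 2.76, in the macrophages under the KO label, and higher there in T and B cells too. As these reads cannot check the label, KO and WT stand throughout for the label of a library. Gfi1b, the paralog of Gfi1, was at 1.18 and 1.27 CPM.

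Of 8124 genes with a mean of at least 10 CPM over both labels, 41 (0.505%) were at least 1.5-fold higher under the KO label and 97 (1.19%) at least 1.5-fold lower. Of these 8124 genes, 7981 were at 10 CPM or more in both libraries. Most genes differed little: the median log2 ratio was 0.00, with -0.26 as the 5% and 0.23 as the 95% point of the tested genes. Past 2-fold lay 24 higher (0.295%) and 40 lower genes (0.492%). Because free RNA from lysed cells enters every droplet, levels in the B and T cells of the same library are given beside many of the differences. A gene was counted as the macrophages' own when its CPM was at least 3 times that in B, T and endothelial cells of the library where it was higher. Of 605 such genes, 2 were higher (0.331%) and 24 were lower (3.97%). Of the 605, 592 were at 10 CPM or more in both libraries, and lower genes such as Ccl24, Fbp1, Mmp12, Inhba and Bpifa1 passed the level filter through the WT library alone, so these counts support nothing by themselves. The counts over all genes depend on which cells are kept: 18 genes were higher without cells called as doublets by Scrublet, and 222 were lower when cells with a UMI of Cd3e, Cd79a or Ptprb were kept.

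**Figure D2:**
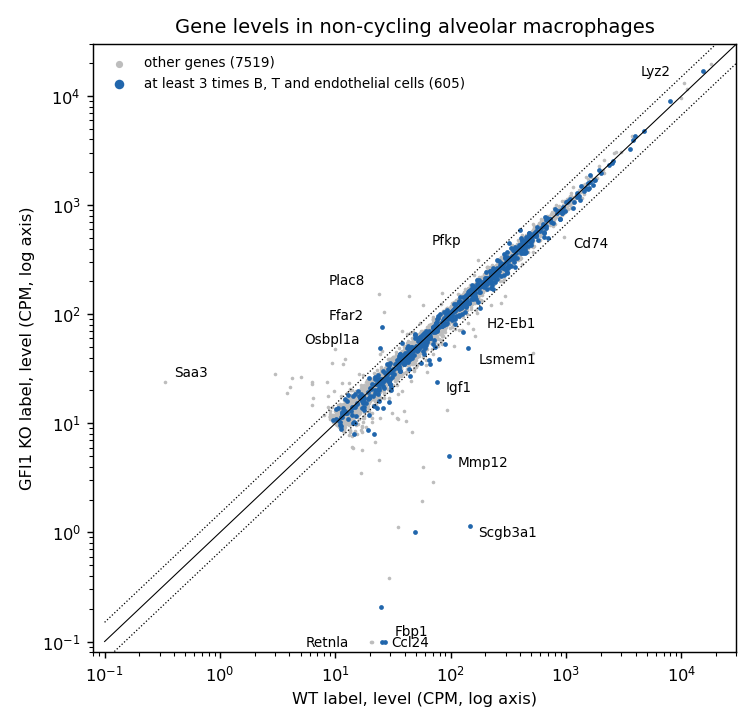
Level of each of the 8124 tested genes under the WT label (x axis, CPM, log scale) against the KO label (y axis, CPM, log scale), with named genes marked and values under 0.1 CPM drawn at 0.1. Most points lie on the diagonal, while Ccl24, Fbp1 and Mmp12 lie far below it and Saa3 far above it.

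The 10 genes that ranked highest under the KO label, by the interval bound of the ratio nearer to 1, were Saa3, F13a1, Plac8, Ifitm6, Vcan, Lcn2, Hp, Ms4a6b, Thbs1 and Sftpc, and none of them was the macrophages' own by that limit. Saa3, an acute-phase serum amyloid, was at 23.7 CPM under the KO label and 0.333 under the WT label, 71.3-fold (43.6 to 125). Alveolar macrophages held 0.276 Saa3 UMIs per cell under the KO label, B cells 0.346 and T cells 0.261, against 0.00410, 0.00435 and 0.00731 under the WT label. Endothelial cells of the KO library held 1.15 per cell, and its interstitial macrophages were at 275 CPM. Saa3 was thus seen in each of these cell types of the KO library, and the part of free RNA in it was not tested. F13a1, coagulation factor XIII, was at 28.2 and 2.98 CPM, and under the KO label it held 0.328 UMIs per macrophage and 0.549 per B cell. Vcan, the proteoglycan versican of monocytes, was at 26.7 and 5.06 CPM, and Hp, haptoglobin, at 48.5 and 9.84 CPM. Thbs1, thrombospondin, was at 105 and 26.3 CPM. Under the KO label it held 1.22 UMIs per macrophage, 1.63 per B cell and 1.16 per T cell. For each of these genes the KO B cells held as many UMIs as the macrophages or more. Lcn2, which encodes a siderophore-binding protein, was at 21.4 and 4.06 CPM, and Ifitm6 at 26.0 and 4.24 CPM. Plac8, at 155 and 24.0 CPM, and Ms4a6b, at 19.0 and 3.85 CPM, are expressed by lymphocytes themselves. Sftpc, surfactant protein C of alveolar type 2 cells, was at 36.0 and 9.45 CPM. It owed its KO level in part to single cells, since 1 thinned cell held 308 UMIs. Ms4a6b reversed to a log2 ratio of -0.043 without cells holding markers of other types. Sftpc reversed to -0.35 with cells holding a UMI of Cd3e, Cd79a or Ptprb kept. Without cells called by Scrublet the log2 ratios were 3.01 for Saa3 (6.11 over all members), 1.93 for F13a1 (3.24), 0.85 for Vcan (2.40), 1.01 for Hp (2.30), 1.12 for Thbs1, 1.71 for Plac8 (2.69) and 1.88 for Ifitm6 (2.61), so each was smaller and still past the limit.

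**Figure D3:**
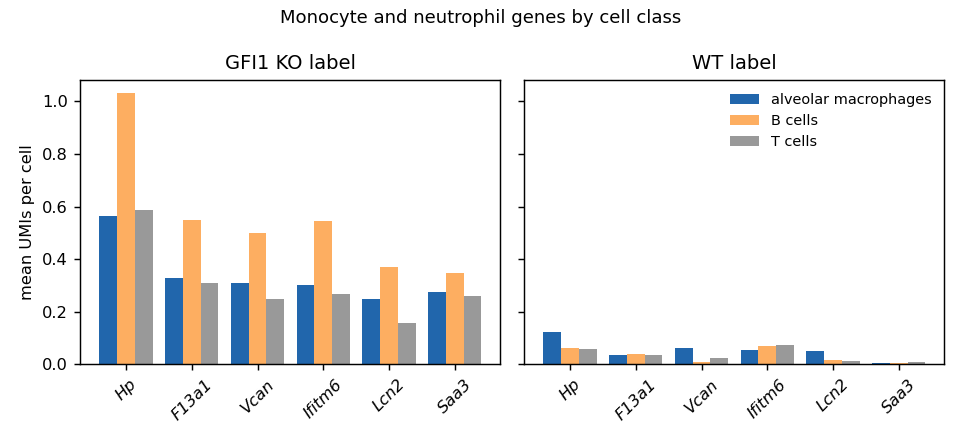
Mean UMIs per cell of Hp, F13a1, Vcan, Ifitm6, Lcn2 and Saa3 in alveolar macrophages, B cells and T cells under each label, with UMIs per cell on the y axis. Under the KO label B cells hold the most of each gene, T cells and macrophages hold less, and under the WT label all 3 hold little (Hp in macrophages, 0.121, is the most).

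The gene that most favoured the KO label among the macrophages' own was Ffar2, which encodes a receptor for short-chain fatty acids. KO members held 76.4 CPM (73.2 to 79.6) and WT members 25.5 CPM (24.1 to 27.02), 2.99-fold (2.79 to 3.21). Alveolar macrophages held 0.888 Ffar2 UMIs per cell under the KO label and 0.314 under the WT label, while B and T cells held 0.00593 or fewer in each library. After thinning to 5000 UMIs, 28.5% (26.7 to 30.3) of KO cells and 10.3% (9.32 to 11.3) of WT cells held a UMI, against 0.350% and 0.396% of T cells. The difference was thus seen in the share of cells with the transcript as well as in its summed level. In cycling alveolar macrophages of the same libraries, which the rule kept apart, Ffar2 was at 71.0 and 24.97 CPM, 2.84-fold (2.13 to 3.82).

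Osbpl1a, an oxysterol-binding protein of endosomes, was the other own gene past the limit, at 49.2 and 24.3 CPM, 2.03-fold (1.87 to 2.19). It was seen in 19.8% of thinned KO cells and 11.4% of thinned WT cells. B cells differed in the same direction at a lower level, with 9.15 and 4.58 CPM. Among own genes nearer the limit, Wfdc21, a whey acidic protein domain gene, was at 595 and 401 CPM, 1.48-fold (1.45 to 1.51), and in 84.3% and 70.1% of cells. Krt19, a keratin of epithelia that these cells also carried, was at 448 and 318 CPM, 1.41-fold (1.38 to 1.44). Cfb, complement factor B, was at 55.0 and 37.9 CPM, and Mgst1, a glutathione transferase of membranes, at 311 and 251 CPM. B cells hardly held Krt19 (1.11 and 1.80 CPM), but they differed in the same direction in Wfdc21 (107 and 15.2 CPM) and Mgst1 (70.7 and 18.4 CPM). In cycling alveolar macrophages Wfdc21 was at 430 and 415 CPM and Mgst1 at 207 and 192 CPM, each nearly level between the labels, and the part of free RNA in these differences was not tested. The other own genes named by the same rule were Dnah11 (65.8 and 48.6 CPM), Nim1k (18.2 and 12.9), Spint1 (64.2 and 49.0) and Afp (16.8 and 12.2), none of them past the limit.

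The genes lowest under the KO label among the macrophages' own included Ccl24, Fbp1, Mmp12, Igf1, Lsmem1, Inhba and Garin1a. Own here refers to B, T and endothelial cells only: interstitial macrophages held more Ccl24 (32.6 CPM under the KO label and 190 under the WT label), Mmp12 (124 and 381) and Igf1 (112 and 282), while no Fbp1 UMI was counted in them. Ccl24 encodes eotaxin-2, a chemokine for eosinophils that alternatively activated macrophages make. No Ccl24 UMI was counted in the 2472 KO cells and 1219 were counted in the 3905 WT cells (25.4 CPM), so with 3 counts over the KO cells as the floor Ccl24 was at least 243-fold lower. Ccl24 was carried by few cells even under the WT label: 34 of 3748 thinned cells (0.907%) held it. Cycling alveolar macrophages did not repeat this difference in full, at 2.17 and 4.27 CPM, a ratio of 0.507 (0.121 to 1.64) whose interval includes 1.

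Fbp1, fructose-1,6-bisphosphatase of gluconeogenesis, was counted 2 times in KO members and 1307 times in WT members (27.2 CPM), a ratio of 0.00256 (0.000310 to 0.00927). A UMI of Fbp1 was seen in 0.0426% of thinned KO cells and 2.67% of thinned WT cells. Mmp12, macrophage elastase, was at 5.01 CPM (4.23 to 5.90) in KO members and 96.3 CPM (93.6 to 99.1) in WT members. The ratio was 0.0520 (0.0438 to 0.0614). Mmp12 was seen in 1.40% of KO and 5.79% of WT cells. The highest thinned cell held 7 UMIs under the KO label and 121 under the WT label. In cycling cells Mmp12 was at 2.17 and 57.8 CPM and Fbp1 at 0 and 50.6 CPM, so both were lower under the KO label there too. B cells held 0 and 0.0160 Mmp12 UMIs per cell, against 0.0583 and 1.19 per macrophage. The 104 endothelial cells of the KO library ran the other way, with 0.250 Mmp12 UMIs per cell (50.5 CPM) against 0.00289 in the WT library. Without cells holding markers of other types, which leaves 1176 KO and 878 WT members, the log2 ratio was -2.39 for Mmp12 (-4.26 over all members), -5.23 for Fbp1 (-8.29) and -4.17 for Ccl24 (-10.51), the last 2 dependent on the small count added to KO counts at or near 0.

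Mmp12 and Fbp1 are shown with the RefSeq sequence around their start sites (250 bases before to 50 after, coordinates in build GRCm38.p6, while the counts were made on GRCm39), since the study concerns a repressor whose core site AATC could be looked for there. AATC was searched on both strands (read as GATT on the other), with overlapping matches counted, and matches are in capitals. Mmp12 has 2 annotated starts, chr9:7344147-7344446 and chr9:7347124-7347423, both on the plus strand. Fbp1 lies on the minus strand at chr13:62888233-62888532.
Mmp12 first start: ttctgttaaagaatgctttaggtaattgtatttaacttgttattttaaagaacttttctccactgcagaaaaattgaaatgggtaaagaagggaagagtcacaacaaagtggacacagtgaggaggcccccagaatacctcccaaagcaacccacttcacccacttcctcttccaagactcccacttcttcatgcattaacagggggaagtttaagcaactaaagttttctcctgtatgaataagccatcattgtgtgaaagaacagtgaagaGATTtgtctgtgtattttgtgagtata
Mmp12 second start: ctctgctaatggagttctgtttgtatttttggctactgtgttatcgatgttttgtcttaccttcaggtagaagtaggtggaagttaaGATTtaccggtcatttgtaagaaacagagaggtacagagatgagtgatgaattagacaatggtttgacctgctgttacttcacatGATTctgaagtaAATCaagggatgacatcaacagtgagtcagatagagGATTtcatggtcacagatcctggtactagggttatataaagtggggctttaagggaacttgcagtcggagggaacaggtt
Fbp1: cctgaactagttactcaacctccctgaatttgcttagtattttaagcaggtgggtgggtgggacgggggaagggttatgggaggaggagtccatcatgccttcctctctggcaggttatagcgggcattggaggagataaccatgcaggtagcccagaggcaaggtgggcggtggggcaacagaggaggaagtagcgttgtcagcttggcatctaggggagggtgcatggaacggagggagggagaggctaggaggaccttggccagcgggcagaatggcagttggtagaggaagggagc
The windows of Mmp12 held 1 and 4 matches and that of Fbp1 held 0, where 73.1% of 32851 such windows of the mouse genome hold at least 1. A motif of 4 letters is common, so the matches describe these windows only and no binding was measured.

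Igf1, insulin-like growth factor 1, was at 24.1 and 75.6 CPM, a ratio of 0.319 (0.294 to 0.346). It was seen in 7.58% and 17.0% of thinned cells. Lsmem1, a leucine-rich transmembrane protein of little known function, was at 49.0 and 141 CPM, a ratio of 0.347 (0.327 to 0.367), and in 14.9% and 31.4% of cells. Inhba, a subunit of activin A, was at 7.97 and 21.8 CPM, and Garin1a, which is named for Golgi association, at 39.0 and 79.9 CPM. All 4 genes were past the 1.5-fold limit and were seen in fewer cells under the KO label. Inhba fell short of the limit without cells holding markers of other types, at a log2 ratio of -0.49 (-1.45 over all members). In cycling alveolar macrophages Igf1 was at 11.4 and 75.9 CPM and Lsmem1 at 14.6 and 76.2 CPM, so the order of the labels was the same.

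**Figure D4:**
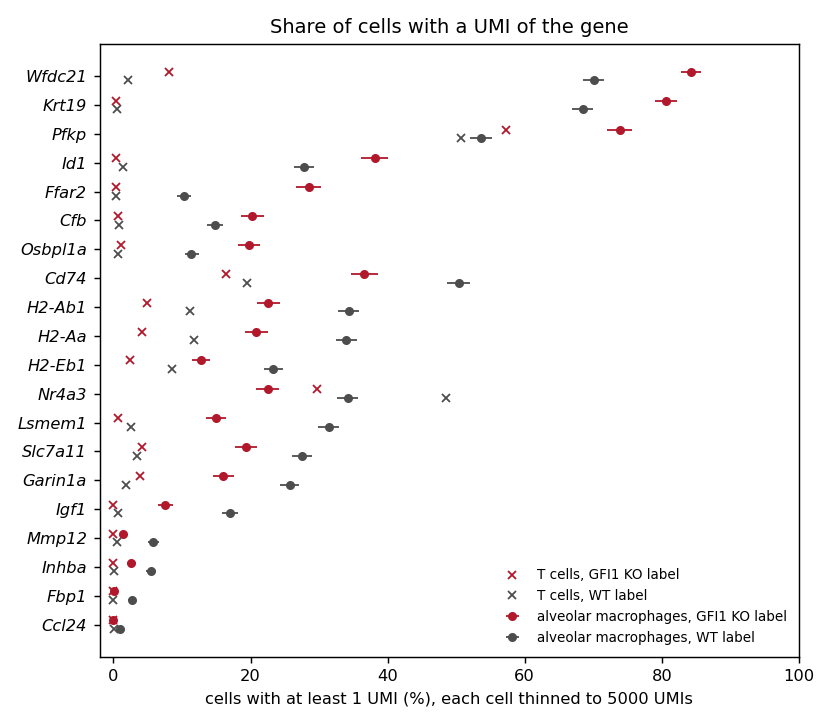
Percent of thinned cells (5000 UMIs each) with at least 1 UMI of each named gene under each label, as filled points with 95% counting intervals for alveolar macrophages and crosses for T cells of the same library. Ffar2, Osbpl1a and Krt19 are seen in more cells under the KO label, and Mmp12, Lsmem1 and Garin1a in fewer.

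The other genes at the low end were markers of other cell types, shared with B cells, or concentrated in few cells. Retnlg, a resistin-like gene of neutrophils, had 1 UMI under the KO label and 1001 under the WT label. Retnla, a resistin-like gene of alternatively activated macrophages, had 1 and 975 UMIs, but WT B cells held 0.754 Retnla UMIs per cell and WT macrophages 0.250. Scgb3a1 (1.15 and 146 CPM), Scgb3a2 (1.01 and 49.5) and Bpifa1 (0.209 and 24.9) are airway secretory genes that passed the limit for own genes, but 1 thinned WT cell alone held 813 Scgb3a1 UMIs. With 3 alveolar genes required, their log2 ratios were -0.48 (Scgb3a1), -0.45 (Scgb3a2) and -2.86 (Bpifa1), against -6.97, -5.59 and -6.78. AA467197, a small mitochondrial protein gene also called Nmes1, was at 1.95 and 56.6 CPM, Mgp, a matrix protein of vessels and airways, at 0.383 and 29.4 CPM, and Hbb-bs, a globin chain, at 1.11 and 34.9 CPM with 3.15 UMIs per WT B cell.

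Cells that held both Mmp12 and Fbp1 were described separately, a choice made after their values were seen, so nothing about them is a test. Among thinned cells, 74 of 3748 held both under the WT label (1.97%, 1.55 to 2.47). Under the KO label 0 of 2349 did, where 3 counts of that total, the limit used for a count of 0, would be 0.128% of cells with UMIs of both. The 74 WT cells held all 8 membership genes in the median, as did the other 3674, but 7 or 8 of them were held by 89.2% of the 74 and 96.8% of the others. All 3 tags read in them were higher: the median was 2413 against 906 counts for CD11c, 2459 against 1495 for CD45 and 15.5 against 4 for CD11b. Their median depth was 16498 UMIs against 13968, and their median mitochondrial share 5.57% against 4.30%. They had far more Chil3 (69546 against 12486 CPM, 5.57-fold), Ccl17 (1829 against 28.6), a chemokine of type 2 responses, and Rnase2a (459 against 5.53), an eosinophil-type ribonuclease. Inhba was at 218 against 17.4 CPM, and Fn1, fibronectin, at 3638 against 863. Ear1, another ribonuclease, was lower in them (45.9 against 576 CPM), as were Marco (53.2 against 256), Krt19 (78.0 against 325) and Il18 (93.6 against 491). Siglecf was lower as well (39.5 against 154 CPM), while Pparg was at 429 against 526. C1qa was at 0 against 13.2 CPM. Other alveolar markers were not lower in this way: Itgax was at 989 against 424 CPM and Car4 at 856 against 403. Fabp4 was at 259 against 199 CPM and Ear2 at 1101 against 1341. In the thinned WT cells, those with both genes thus had more of the CD11c tag, Chil3, Itgax and Car4 than the others. They had less of Siglecf, Marco and Ear1, while Pparg, Fabp4 and Ear2 were within 1.5-fold.

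**Figure D5:**
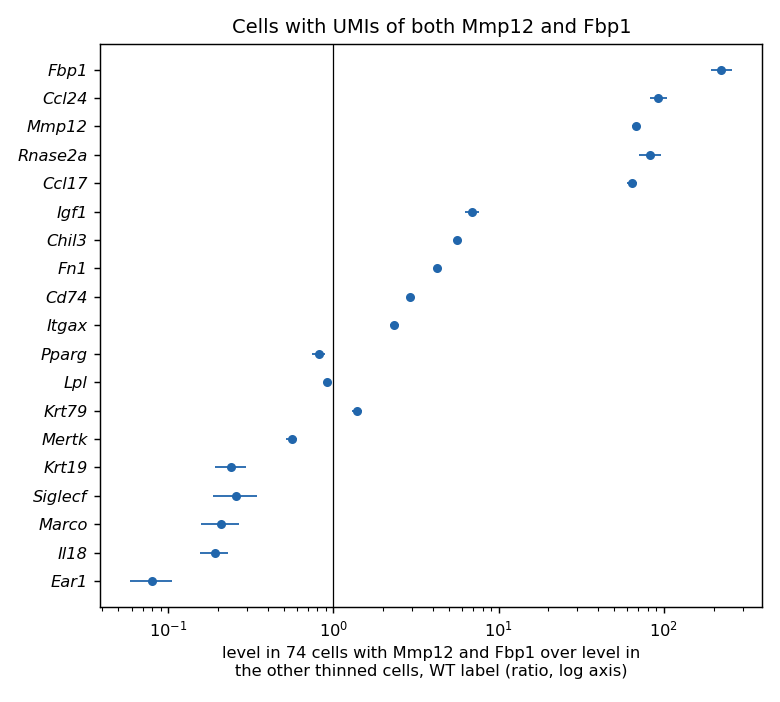
Ratio of the level (CPM) in the 74 WT cells with UMIs of both Mmp12 and Fbp1 to that in the other 3674 thinned WT members (x axis, log scale), 1 point per gene with its 95% counting interval. Rnase2a, Ccl17, Fn1 and Chil3 lie to the right of 1, and Ear1, Il18, Marco, Siglecf and Krt19 to the left, while Mmp12 and Fbp1 chose the cells.

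A wider set of cells, those with a UMI of any of Ccl24, Fbp1 or Mmp12, was left out to see which ratios moved. Leaving them out, 74 KO (2.99%) and 386 WT cells (9.88%), moved the log2 ratio of Ccl17 from -4.59 to -1.54 and of AA467197 from -4.85 to -2.39. Igf1 moved from -1.65 to -1.20 and Inhba from -1.45 to -0.86. Lsmem1 (-1.48) and Garin1a (-1.06) stayed near their values over all cells, and Ffar2 remained at 1.51. This setting was added after the data were seen.

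Several MHC class II genes, which present antigen to helper T cells, were lower under the KO label. Of 9 tested genes of the list (8 at 10 CPM or more in both libraries) 5 were past the limit and lower, where 1.19% of all tested genes were. The list also holds the costimulator Cd86, which was among the 5. The median log2 ratio of the list was -0.73 against 0.00 over all genes. H2-Eb1, a beta chain, was at 63.7 CPM under the KO label and 164 under the WT label, H2-Ab1 at 127 and 273, and H2-Aa, an alpha chain, at 147 and 298. Cd74, the invariant chain that guides class II molecules, was at 506 and 962 CPM, and the costimulator Cd86 at 102 and 169. With 3 alveolar genes required Cd86 fell short of the limit, at a log2 ratio of -0.57 (-0.73 over all members). The peptide-loading gene H2-DMa ran the other way, at 294 and 257 CPM. Cd80, at 276 and 331, was lower under the KO label but not past the limit. Of the 9 tested genes 8 lay below a ratio of 1 and 1 above. A UMI of H2-Ab1 was seen in 22.6% of thinned KO cells and 34.3% of thinned WT cells, and of Cd74 in 36.6% and 50.3%. The UMIs of the list in a thinned cell had a median of 5 under the KO label and 6 under the WT label, and a 95% point of 29 and 43, so the gap was widest among the cells that held most. T cells differed in the same direction, with H2-Ab1 in 4.90% and 11.1% of cells and 2.84 and 9.81 UMIs of the list per cell, against 18.9 and 32.0 per macrophage. So did dendritic cell markers in the macrophages (23.0 and 128 CPM) and B cell markers (44.9 and 77.8 CPM), and their part in the result was not tested. Without the cells carrying Ccl24, Fbp1 or Mmp12 the log2 ratios were -1.31 for H2-Eb1, -0.95 for H2-Ab1, -0.88 for H2-Aa and -0.76 for Cd74. Ciita, the class II transactivator, was too scarce to be tested (4.21 and 11.4 CPM).

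Of 33 genes of alveolar identity 0 were higher and 0 lower, with a median log2 ratio of 0.09. Across all tested genes 0.505% were higher and 1.19% lower, so counts of 0 or 1 in this and the next 4 lists are read against that background and are no result about the lists. Ear2, a ribonuclease of the family of Ear1, was at 1492 and 1341 CPM, Car4, carbonic anhydrase 4, at 510 and 414, and Slc7a2, an arginine transporter and the lowest of the list, at 514 and 650. The Ear genes are near-identical copies that could share reads. GM-CSF and TGF-beta signalling gave 0 and 0 of 18 (median -0.01), with the receptor chains Csf2ra at 247 and 260 CPM and Tgfbr1 at 537 and 478. Lipid uptake and efflux gave 0 and 0 of 22 (median -0.01), with the cholesterol exporters Abcg1 at 1614 and 1615 CPM and Abca1 at 200 and 283. Lipid storage and oxidation gave 0 and 0 of 23 (median 0.02). Sterol and fatty acid synthesis gave 0 higher and 1 lower of 23, Scd2, a desaturase, at 22.4 and 34.1 CPM, and 21 of its 23 genes lay below 1, where 49.2% of all tested genes did. B cells (993 and 1238 CPM summed over the list) and T cells (797 and 958) were lower under the KO label as well.

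Against the 0.505% higher and 1.19% lower among all tested genes, lysosome and phagocytosis genes gave 1 higher of 31, Cd300a, an inhibitory receptor, at 67.7 and 44.8 CPM (median 0.09). Cd300a was past the limit in 6 of 13 alternatives and fell to a log2 ratio of 0.24 without cells called by Scrublet. Iron and haem handling gave 0 higher and 1 lower of 17, Slc7a11, the cystine transporter, at 82.5 and 141 CPM. Slc7a11 fell short of the limit without cells holding markers of other types, at a log2 ratio of -0.52 (-0.77 over all members). Interferon-stimulated genes gave 0 and 0 of 10 (median 0.05). Glycolysis and hypoxia gave 1 higher of 19, Pfkp, a phosphofructokinase, at 315 and 173 CPM, 1.82-fold (1.77 to 1.88). A UMI of Pfkp was seen in 73.9% of thinned KO cells and 53.7% of thinned WT cells, while 57.3% and 50.7% of T cells held it.

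Inflammatory genes gave 1 higher and 6 lower of 27, where 0.505% and 1.19% of all tested genes were higher and lower. Of the 27, 24 were at 10 CPM or more in both libraries, and Saa3, Tnip3 and Cxcl16 were under it in 1 of them. The higher gene was Saa3, which B and T cells of the KO library held as well. The lower ones were Tnip3 (8.39 and 46.3 CPM), which restrains NF-κB, the chemokines Ccl4 (11.1 and 20.8), Cxcl3 (15.7 and 29.1) and Cxcl16 (7.69 and 14.0), the cytokine Il6 (16.9 and 29.4) and the lectin receptor Clec4d (51.6 and 78.0). Il1b was at 495 and 491 CPM and Tnf at 143 and 121, so neither of these cytokines passed the limit. Alternative activation and repair gave 0 higher and 5 lower of 16 (Ccl24, Retnla, Ccl17, Mmp12 and Igf1). Of the 16, 12 were at 10 CPM or more in both libraries, and all of the 5 but Igf1 passed the level filter through the WT library alone, so the count supports nothing. Mrc1, the mannose receptor, was at 1694 and 1737 CPM. The median log2 ratio of the list was -0.14, and -0.59 at a minimum mean level of 1 CPM. It was 0.02 without the cells carrying Ccl24, Fbp1 or Mmp12. In that setting Ccl24 and Mmp12 were also left out of the list, which alone raises the median, so the part of the cells in it was not tested. Immediate early genes gave 1 higher and 2 lower of 28 (Nr4a3 at 72.8 and 155 CPM, Nr4a2 at 29.2 and 62.2), and Hspa1a, which has a near-identical copy, was at 27.5 and 17.3.

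Genes of monocyte-derived or interstitial macrophages gave 4 higher and 0 lower of 11, where 0.505% and 1.19% of all tested genes were. Of the 11, 8 were at 10 CPM or more in both libraries, and Ly6c2 and F13a1 passed the level filter through the KO library alone, so the count supports nothing. The higher ones were the chemokine receptor Ccr2 (39.0 and 12.2 CPM), Ly6c2 (24.1 and 6.24), the integrin Itgam (23.6 and 11.4) and F13a1, while Fn1, fibronectin, was at 849 and 929. B cells of the KO library held 0.605 Ccr2, 0.430 Ly6c2 and 0.400 Itgam UMIs per cell, against 0.453, 0.280 and 0.274 in the macrophages, and the part of free RNA in these levels was not tested. Chemokine and adhesion receptors gave 2 higher and 1 lower of 24, and the higher ones were Ccr2 and Itgam. The list of GFI1 and its corepressors, which also holds Id1, gave 1 higher of 17. That gene was Id1, an inhibitor of helix-loop-helix factors and not one of the corepressors, at 125 and 83.2 CPM. The corepressor Kdm1a was at 60.2 and 60.9. Id1 was seen in 38.1% and 27.8% of thinned cells and at 0.0133 UMIs per T cell under the KO label, against 1.46 per macrophage. Its ratio lay close to the limit and was past it in 5 of 13 alternatives, with log2 ratios from 0.49 to 0.66 over them.

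The next lists are again to be read against 0.505% higher among all tested genes. Myeloid transcription factors gave 1 higher of 26, Runx3, a factor that T cells also express, at 14.2 and 8.59 CPM, with Cebpb, an activator of macrophage genes, at 2443 and 2504. Complement and coagulation gave 1 higher of 13, Thbs1, and eicosanoid enzymes 1 of 12, Pla2g7, a phospholipase, at 22.8 and 6.28 CPM, with 0.265 UMIs per macrophage and 0.416 per B cell under the KO label. Runx3 and Pla2g7 passed the level filter through the KO library alone, so the counts of their lists support nothing. Other cell cycle genes gave 0 and 0 of 17. Among the 20 lists, MHC class II had the median furthest from 0.

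Markers of other cell types differed between the libraries and are given beside the results. Monocyte markers summed to 396 CPM in the class under the KO label and 138 under the WT label, led by Plac8. Neutrophil markers summed to 452 and 565 CPM, led by S100a9 (120 and 222), epithelial markers to 257 and 927, led by Scgb1a1 (43.9 and 518), and T and NK markers to 25.7 and 187, led by Ccl5. Dendritic cell markers summed to 23.0 and 128 CPM, led by Ccl17, B and plasma cell markers to 44.9 and 77.8, endothelial markers to 575 and 516, led by Car4, and fibroblast markers to 11.1 and 44.6. Erythroid markers summed to 7.73 and 74.6 CPM, and mast cell markers to 0.557 and 6.05. Apart from endothelial markers, which Car4 of the macrophages dominates, and monocyte markers, the sum of every list was higher under the WT label. Single members went the other way: Lcn2 and Ifitm6 of the neutrophil list and Sftpc of the epithelial list were higher under the KO label. Scrublet called 132 members (5.34%) under the KO label and 198 (5.07%) under the WT label as doublets. The libraries shared 74 barcodes, and 2 of them were members in both. What these markers contribute to the differences above was not tested.

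Among genes with the greatest spread between cells in both libraries were S100a9, S100a8, Ccl5, Scgb1a1 and Cd74, of which all but Cd74 are known from other cell types. S100a9, the calprotectin subunit of neutrophils, was seen in 3.45% of thinned KO cells and 9.63% of thinned WT cells. The 5% of WT cells that held most carried 95.3% of its UMIs. Under the KO label that share was 100%, which follows from fewer than 5% of cells holding it. S100a8 was seen in 9.24% and 10.1% of cells. Other genes with high spread were seen in many macrophages of either kind. Mt1, a metallothionein that binds zinc, was seen in 83.8% and 80.5% of cells, with 39.2% and 39.0% of its UMIs in the top 5% of cells. Cxcl2, a neutrophil chemokine, was seen in 44.8% and 51.9%, against 66.0% and 70.9% of interstitial macrophages, and Fth1 (ferritin heavy chain) and Lyz2 (lysozyme), together with C1qa of a few cells, completed the set. Fth1 was at 17055 and 15452 CPM and Lyz2 at 13081 and 10532, 1.24-fold.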

How the data were processed

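Lung cells in 1 library labelled GFI1 KO and 1 labelled GFI1 WT were profiled. The deposited values are UMI counts per gene and cell, made by the authors with Cell Ranger 9.0.1 on GRCm39 (mm39) as the submitters' processing notes list them. The matrices also hold 18 antibody tags. The study's methods name 2 samples per genotype, and 1 of each genotype was analysed here. Cells with at least 500 UMIs, 200 genes and at most 20% mitochondrial UMIs were kept, as in the study's methods, and 13 mitochondrial, 92 ribosomal and 9430 Gm genes were left out, leaving 28726344 KO and 48063431 WT counts in the class. Members and gene lists were chosen with earlier results of these data known. Counts were summed over cells per library and scaled to CPM. Genes with a mean of at least 10 CPM were compared and called past 1.5-fold. Intervals were exact Poisson, Clopper-Pearson or conditional binomial (95%). Named genes were the 10 highest and 10 lowest by the interval bound nearer to 1, over all genes and over own genes (at least 3 times B, T and endothelial cells), the genes of the rule, the ends and most abundant of each list, and the 10 most variable. Doublets were kept, and called with Scrublet as an alternative. For shares, cells were thinned to 5000 UMIs, which left out 123 KO and 157 WT members. The scripts were tested on simulated data. Python 3.11.15, numpy 2.4.6, scipy 1.17.1, pandas 2.3.3 and scanpy 1.11.5 were used. A few genes are not reported here.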

Additional observations from a re-analysis of the deposited data

How the results depend on the processing

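With 1 library per label, genotype cannot be told apart from differences between mice or preparations, and counting intervals leave out the spread between mice. The alternatives were run for 49 genes and not for every gene named above. Tnip3, Il6, Ccr2, Itgam, Runx3, Pla2g7 and Hspa1a, for example, were past the limit but were not run. Of the 49 genes, 39 were past 1.5-fold, and 30 of these stayed past it in the same direction in all alternatives run for them, out of 16. The 9 others were Ms4a6b, Sftpc, Scgb3a1 and Scgb3a2, Id1 and Cd300a, and Inhba (log2 -0.49) and Slc7a11 (-0.52) without cells holding markers of other types and Cd86 (-0.57) with 3 alveolar genes required. The count of higher genes, 41 as reported, was 67 with 3 alveolar genes required, 18 without cells called by Scrublet, 18 without cells holding markers of other types, 149 at a minimum of 1 CPM, 12 at 50 CPM and 24 at 2-fold. The count of lower genes, 97 as reported, was 747 at 1 CPM, 26 at 50 CPM, 40 at 2-fold and 222 with cells holding Cd3e, Cd79a or Ptprb kept, an alternative chosen after seeing the data. The WT share was 20.8% with 3 alveolar genes, 19.6% with at most 1 cycling gene and 23.8% with those cells kept, and the difference was then 0.477 points. After thinning before the rule, the shares were 27.9% (KO) and 34.2% (WT), and the difference reversed to -6.33 points. Ms4a6b reversed to a log2 ratio of -0.043 without cells holding markers of other types, and Sftpc to -0.35 with the excluded cells kept. Among genes that stayed past the limit, the log2 ratio nearest 0 over the alternatives was -0.99 for Igf1, -1.54 for Ccl17, -2.39 for AA467197, -3.03 for Mgp, -1.43 for Hbb-bs, -6.16 for Retnla and -5.54 for Retnlg. Of 20 list medians, 6 moved by over 0.1, the largest by 0.487, and in some alternatives the genes counted in a list changed too. The cause of these shifts was not tested. No paired analysis was possible because each label has 1 sample.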
